A study of Mus musculus with 3 samples.

Results

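Expression of 8 genes of the endothelial cell and of its signal from neighbouring cells was measured by single-nucleus RNA sequencing of the mouse prefrontal cortex (PFC). The genes were *Flt1*, *Kdr*, *Vegfa*, *Tek*, *Cldn5*, *Pecam1*, *Slco1a4* and *Abcb1a*. They were chosen as a named list, 8 of the 32285 genes in the count tables, and were read in endothelial, mural, meningeal and ensheathing glia nuclei and in astrocytes. Each of the 3 groups was 1 library of nuclei from male mice of 6 to 8 weeks. The C57BL/6 library pooled 5 wild-type mice. The *Nav1* KO library pooled 4 mice that lack part of *Nav1*, a neuronal microtubule gene, through a CRISPR deletion at the end of its first exon, on the C57BL/6 background. The BTBR library came from the inbred strain BTBR T<+> Itpr3<tf>/J, for which the labels give no genotype and no number of mice. All nuclei were sorted with an antibody to the neuronal protein NeuN, and NeuN+ and NeuN- nuclei were collected in chosen proportions. The shares of neuronal and non-neuronal nuclei thus depend on the sort and are not those of the tissue. Nuclei classed as neuronal made up 84.2% of the kept C57BL/6, 72.7% of the *Nav1* KO and 78.2% of the BTBR nuclei. The labels call the cells neurons, yet all the nuclei classes described here are non-neuronal. With 1 library per group there is no replicate, so no test was made between groups, and all intervals are 95% intervals that cover counting error only.

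Brain capillaries are lined by endothelial cells whose tight junctions and transporters form the blood-brain barrier. Vascular endothelial growth factor A (VEGF-A, from *Vegfa*) is secreted by other cells, among them astrocytes, and binds 2 receptor tyrosine kinases on the endothelium. VEGFR2 (*Kdr*) carries most of the signal for growth and permeability, and VEGFR1 (*Flt1*) binds the ligand tightly and limits what reaches VEGFR2. Tie2 (*Tek*) is the receptor for the angiopoietins. Claudin-5 (*Cldn5*) is the main tight junction protein of brain endothelium, and CD31 (*Pecam1*) is an adhesion protein at endothelial contacts. *Slco1a4* encodes an organic anion transporter, and *Abcb1a* encodes P-glycoprotein, an efflux pump that returns many drugs to the blood.

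In the mm10 build, *Flt1* lies at chr5:147561604-147726011 and *Kdr* at chr5:75932827-75978458, both on the minus strand. *Vegfa* lies at chr17:46016993-46032369 on the minus strand and *Tek* at chr4:94739289-94874976 on the plus strand. *Cldn5* is at chr16:18776847-18778262 on the plus strand, *Pecam1* at chr11:106654217-106750628 on the minus strand, *Slco1a4* at chr6:141805440-141856199 on the minus strand and *Abcb1a* at chr5:8660077-8748575 on the plus strand. None of the 8 overlaps another gene of the count tables. *Abcb1a* has a near-identical neighbour, *Abcb1b*, and *Slco1a4* has the relatives *Slco1a1*, *Slco1a5* and *Slco1a6*, so reads of these could be misassigned or dropped. *Slco1a1*, *Slco1a5* and *Slco1a6* had 0 counts in the endothelial and meningeal nuclei of every library, and *Abcb1b* had 5.39 CPM (counts of the gene per 1000000 counts of the class) in endothelial nuclei over the 3 libraries.

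RefSeq (GRCm38.p6) gave promoter sequence for 7 of the 8 genes. The 150 bases before the start site are shown for 3 genes that were high in endothelial nuclei and for *Vegfa*, which was high in astrocytes, since their contrast runs through the results. They are at chr5:147726012-147726161 (minus strand) for *Flt1*, chr16:18776697-18776846 (plus strand) for *Cldn5*, chr6:141856221-141856370 (minus strand) for *Slco1a4* and chr17:46032378-46032527 (minus strand) for *Vegfa*. Capitals mark the ETS core GGAAG, the GC box GGGCGG and the hypoxia response core ACGTG, searched on both strands.
Flt1: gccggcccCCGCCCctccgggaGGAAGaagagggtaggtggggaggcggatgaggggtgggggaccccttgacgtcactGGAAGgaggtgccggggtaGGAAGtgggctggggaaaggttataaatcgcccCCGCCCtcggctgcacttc
Cldn5: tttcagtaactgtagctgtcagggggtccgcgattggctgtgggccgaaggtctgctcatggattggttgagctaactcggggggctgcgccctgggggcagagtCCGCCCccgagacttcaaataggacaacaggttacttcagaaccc
Slco1a4: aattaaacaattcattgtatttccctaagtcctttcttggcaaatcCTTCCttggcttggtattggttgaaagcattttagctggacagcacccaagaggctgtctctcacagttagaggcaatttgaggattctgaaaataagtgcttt
Vegfa: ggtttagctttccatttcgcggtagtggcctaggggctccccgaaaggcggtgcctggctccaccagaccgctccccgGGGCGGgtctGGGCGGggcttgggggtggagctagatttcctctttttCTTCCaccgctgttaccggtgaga
The *Flt1* window held 3 matches to the ETS core and 2 GC boxes, and its GC content was 68.0%. The *Slco1a4* window held 1 ETS core, no GC box and a GC content of 39.3%. The *Cldn5* window held 1 GC box and no ETS core, and the *Vegfa* window shown 2 GC boxes and 1 ETS core. *Vegfa* had another RefSeq window, at chr17:46025164-46025313, with 1 ETS core, no GC box and a GC content of 55.3%. Of all 32843 promoter windows of this length, 47.7% held the ETS core, 28.6% the GC box and 11.2% the hypoxia response core, which was in none of the members' windows. These are matches of letters, not sites of binding.

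After filters on genes and mitochondrial counts, 14630 C57BL/6, 14056 *Nav1* KO and 14777 BTBR nuclei were kept, with 38701384, 50962468 and 48936236 counts. The series text states 15238 nuclei for BTBR, which is the number of barcodes in that table before the filter. *Nav1* was at 345, 264 and 146 CPM over the 3 libraries, but the reads come from the 3' end of the transcript, outside the deleted part, so this level does not check the KO label. Between 55 and 66 cell barcodes were shared by each pair of libraries, and 1 of the endothelial nuclei had such a barcode. Clustering, in which the 8 genes and their pathway lists were kept out of the variable genes, gave 151 endothelial nuclei (25 C57BL/6, 81 *Nav1* KO and 45 BTBR) in 1 cluster. The classes also held 126 mural nuclei (the cells that wrap small vessels), 1685 meningeal nuclei, 600 ensheathing glia nuclei and 1371 astrocyte nuclei. The naming limits were set after the data were seen, and the clusters they left unnamed held 6.76%, 9.06% and 9.96% of the nuclei of the C57BL/6, *Nav1* KO and BTBR libraries.

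The endothelial cluster was named by its 15 markers, so their level there describes it and does not check the label. Mural RNA was found beside them. All 15 endothelial markers had counts in the endothelial nuclei, and their summed level was 4839, 4581 and 5039 CPM in C57BL/6, *Nav1* KO and BTBR, against 24.8 to 178 CPM in the other 4 classes with the 3 libraries added up. *Ly6c1*, *Ly6a* and the pericyte gene *Rgs5* led the cluster. The 12 mural markers also all had counts there, summing to 4301, 2614 and 3138 CPM, against 4510, 4925 and 5988 CPM in the mural nuclei. The pericyte gene *Vtn* was at 1180 CPM in endothelial and 2698 CPM in mural nuclei, and *Pdgfrb* at 172 and 892 CPM. In C57BL/6 the endothelial nuclei also held 45 counts of the smooth muscle gene *Acta2*, all in 1 nucleus, while *Acta2* and *Myh11* had 0 counts in the mural nuclei, which are thus pericyte-like by their markers. Of the 151 endothelial nuclei, 49 had 2 or more different mural markers and 56 had a UMI (a counted molecule) of *Slc17a7*, *Gad1* or *Gad2*, which are neuronal. Endothelial nuclei made up 0.171% (0.111 to 0.252) of C57BL/6, 0.576% (0.458 to 0.716) of *Nav1* KO and 0.305% (0.222 to 0.407) of BTBR nuclei, and ensheathing glia, cells of the olfactory nerve, 0.185%, 3.20% and 0.832%. These shares can be set by the sort and by the dissection.

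Among the 5 classes, 7 of the 8 genes were highest in the endothelial nuclei in all 3 libraries, the exception being *Vegfa*. Of the 12036 genes with at least 50 counts over the 5 classes, 7.10% had this pattern. Nothing was tested here, since clusters are formed from the cells they are compared in.

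Among the 5 classes the receptors were highest in endothelial nuclei. *Flt1* was at 1985 CPM in C57BL/6 (interval 1608 to 2424), 1246 CPM in *Nav1* KO (1092 to 1416) and 1707 CPM in BTBR (1493 to 1943). Its next levels were in mural nuclei, at 129, 47.7 and 54.6 CPM, and in meningeal nuclei, at 41.9, 48.3 and 71.3 CPM, and the intervals of these classes overlapped in each library. In astrocytes *Flt1* had 3 counts over all libraries. *Kdr*, the signalling VEGF receptor, was at 186 CPM (85.1 to 353), 175 CPM (120 to 246) and 239 CPM (163 to 337) in the C57BL/6, *Nav1* KO and BTBR endothelial nuclei. It had 20 counts in meningeal nuclei (6.89 CPM), 14 of them in *Nav1* KO, 3 counts in ensheathing glia and 1 count in mural nuclei. In all astrocytes it had 0 counts, which allows up to 1.26 CPM there. *Tek* was at 207 CPM (99.2 to 380), 122 CPM (77.3 to 183) and 127 CPM (73.8 to 203). In the other 4 classes together *Tek* had 6 counts, 5 of them in meningeal nuclei. *Kdr* and *Tek* thus rested on 9 and 10 counts in the C57BL/6 endothelial nuclei, where a single count was worth 20.7 CPM.

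The junction gene *Cldn5* and the adhesion gene *Pecam1* were likewise highest in endothelial nuclei among the 5 classes. *Cldn5* was at 1840 CPM (1478 to 2265) in C57BL/6, 1235 CPM (1082 to 1405) in *Nav1* KO and 1073 CPM (905 to 1264) in BTBR endothelial nuclei. Its second class was the ensheathing glia in *Nav1* KO (88.4 CPM) and BTBR (30.4 CPM), whereas in C57BL/6 the mural nuclei had 173 CPM, from 8 counts in 2 nuclei. *Pecam1* was at 165 CPM (71.4 to 326), 175 CPM (120 to 246) and 164 CPM (103 to 248), and had 20 counts in all in the other 4 classes, with 1 in mural and 7 in meningeal nuclei. In microglia, which are outside the 5 classes, *Pecam1* had 17 counts (9.90 CPM over the libraries).

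The transporters were also highest in endothelial nuclei among the 5 classes. An unnamed cluster outside these classes, described at the end, had *Abcb1a* near the endothelial level in *Nav1* KO. *Slco1a4* was at 1158 CPM (875 to 1504), 1002 CPM (864 to 1156) and 1133 CPM (960 to 1328) in C57BL/6, *Nav1* KO and BTBR endothelial nuclei, with all 3 intervals overlapping. Its meningeal levels were 50.3, 49.5 and 1.37 CPM, and its mural levels rested on 4 counts in all. *Abcb1a* was at 310 CPM (174 to 512), 164 CPM (112 to 233) and 350 CPM (257 to 466). Its meningeal levels were 54.5, 74.2 and 61.7 CPM, and it had 0 counts in all 126 mural nuclei, which allows up to 11.4 CPM.

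*Vegfa*, the ligand, ran the other way. Astrocytes had 598 CPM (529 to 673) in C57BL/6, 607 CPM (562 to 654) in *Nav1* KO and 907 CPM (843 to 975) in BTBR. The endothelial nuclei had 0 counts in C57BL/6, which allows up to 62.0 CPM, and 101 CPM (60.6 to 157) in *Nav1* KO and 149 CPM (91.1 to 230) in BTBR. With the 3 libraries added up, in which each library weighs by its counts, the other levels were 237 CPM (213 to 262) in oligodendrocyte precursors, 182 CPM (134 to 241) in mural nuclei, 154 CPM (136 to 174) in ensheathing glia, 124 CPM (112 to 138) in meningeal nuclei, 105 CPM (74.7 to 144) in endothelial nuclei and 98.8 CPM (74.6 to 128) in oligodendrocytes. From the precursors to the oligodendrocytes the intervals of neighbours in this order overlap. The order differed between libraries, with mural and ensheathing nuclei both at 219 CPM and precursors at 197 CPM in BTBR, and precursors at 317 CPM and mural nuclei at 259 CPM in C57BL/6. Microglia were at 57.6 CPM and neuronal nuclei at 52.3 CPM.

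**Figure D1:**
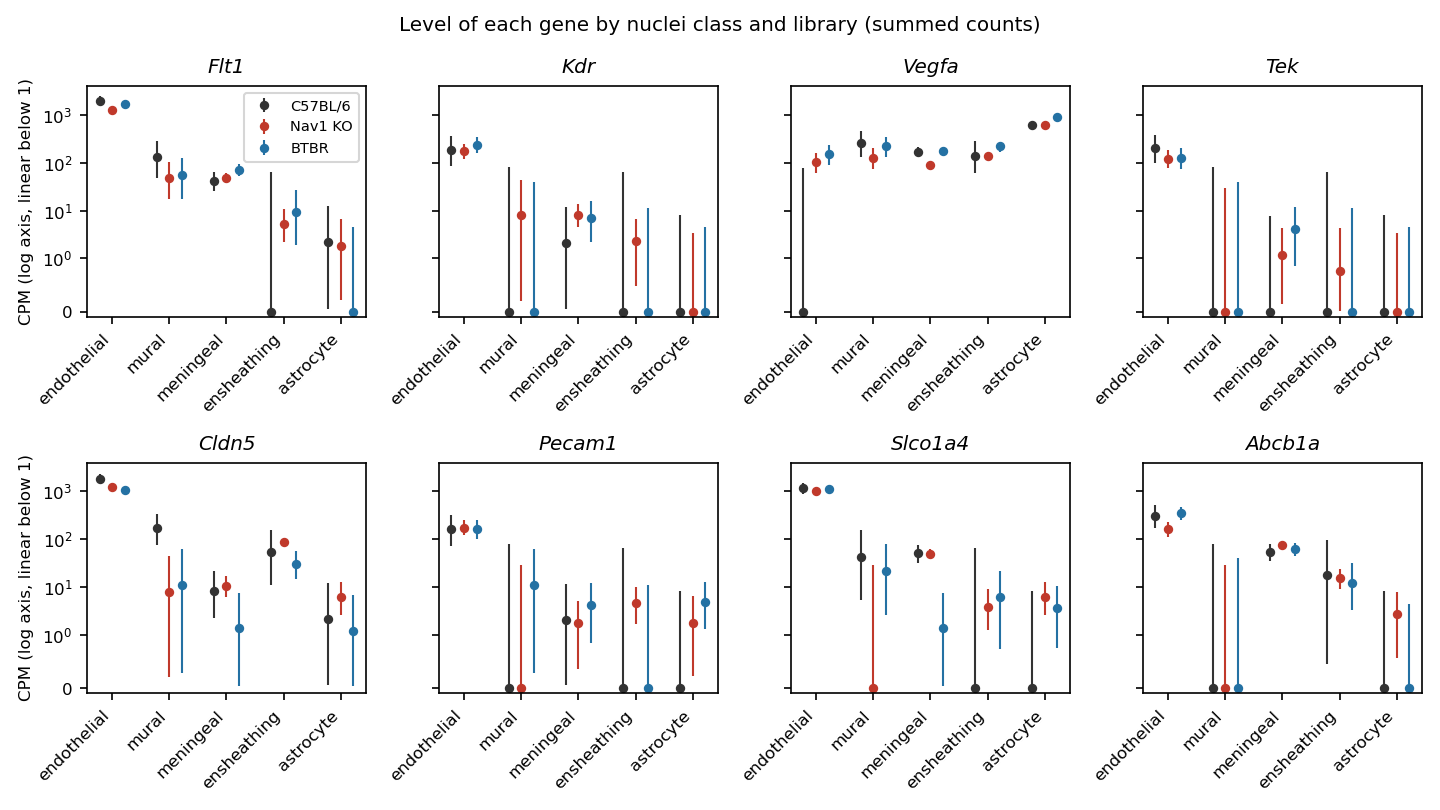
Level of each of the 8 genes in CPM (log axis, linear below 1) in 5 classes of nuclei, by library, as points with 95% Poisson intervals of the summed counts. The endothelial points stand above the other classes in all panels except *Vegfa*, which is highest in astrocytes (598, 607 and 907 CPM).

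The share of nuclei with a UMI was also highest in endothelial nuclei for the 7 genes and in astrocytes for *Vegfa*. To set depth equal, 1000 UMIs were drawn from every nucleus and shallower nuclei were left out, which kept 101 of the 151 endothelial nuclei. Of these, 64.4% (54.2 to 73.6) had a *Flt1* UMI, 63.4% a *Cldn5* UMI and 63.4% a *Slco1a4* UMI. *Kdr* and *Abcb1a* were each found in 19.8%, and *Tek* and *Pecam1* each in 14.9%. In microglia, taken as a background for *Flt1*, *Cldn5* and *Slco1a4*, the shares were 0.322%, 0.322% and 0.643%. *Pecam1* had 17 counts in microglia (9.90 CPM), in 3.49% of the unthinned nuclei, against 28.5% of the unthinned endothelial nuclei. The median depth before thinning was 1574 UMIs in endothelial nuclei and 1891 in microglia, and the unthinned endothelial shares were 80.1%, 81.5% and 82.1% for *Flt1*, *Cldn5* and *Slco1a4*. *Vegfa* had a UMI in 45.8% of thinned astrocytes and 7.92% of thinned endothelial nuclei.

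Single nuclei often held several members. Of the 151 endothelial nuclei, 141 (93.4%) had a UMI of 2 or more of the 7 genes other than *Vegfa*, 72 (47.7%) of 4 or more, and 3 of none. By library, 52.0% of C57BL/6, 42.0% of *Nav1* KO and 55.6% of BTBR endothelial nuclei had 4 or more. In the other classes, 2 or more were found in 2.38% of mural, 1.96% of meningeal, 1.17% of ensheathing, 0.146% of astrocyte and 0.205% of microglia nuclei.

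**Figure D2:**
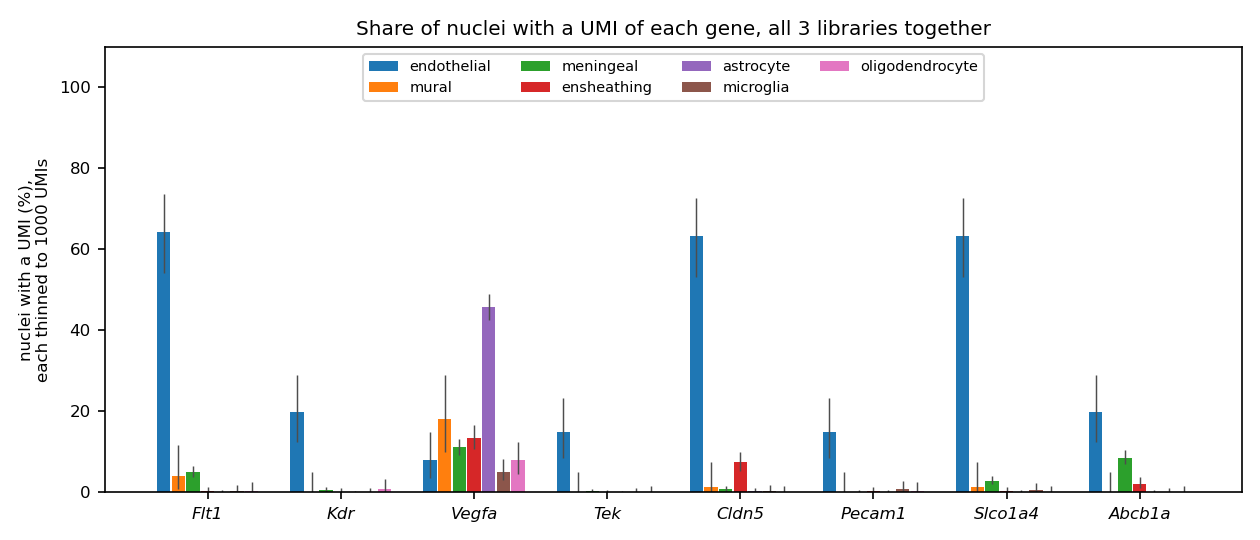
Percent of nuclei with a UMI of each gene after thinning to 1000 UMIs per nucleus, all 3 libraries together, with 95% exact binomial intervals. Endothelial bars are highest for 7 genes (14.9% to 64.4%) and astrocyte bars for *Vegfa* (45.8%).

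Outside the endothelium, *Flt1*, *Slco1a4* and *Abcb1a* were found in the fibroblasts of the meninges. The named meningeal nuclei formed 2 clusters. The larger, of 972 nuclei, was led by *Slc6a13*, a GABA transporter of meningeal fibroblasts, and the smaller, of 713 nuclei, by *Slc47a1*, an organic cation extruder. *Flt1* was at 94.4, 144 and 132 CPM in the *Slc6a13* cluster in C57BL/6, *Nav1* KO and BTBR, and at 6.97, 3.46 and 0 CPM in the *Slc47a1* cluster. *Abcb1a* showed the opposite pattern, with 0, 11.1 and 7.62 CPM in the *Slc6a13* cluster and 90.7, 104 and 125 CPM in the *Slc47a1* cluster. Its level in oligodendrocytes was 1.76 CPM over the libraries. The same levels were found without nuclei that held endothelial markers. In the nuclei of these clusters without any of the 15 endothelial markers, *Flt1* was at 101 (58.6 to 161), 129 (97.1 to 169) and 116 CPM (82.1 to 159) in the *Slc6a13* cluster, and *Abcb1a* at 92.3 (59.2 to 137), 103 (83.2 to 127) and 115 CPM (80.4 to 161) in the *Slc47a1* cluster.

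*Slco1a4* was lower in BTBR meningeal nuclei, a pattern singled out after its values were seen. In the *Slc6a13* cluster it was at 99.7 CPM (19 counts) in C57BL/6 and 143 CPM (77 counts) in *Nav1* KO, but at 2.54 CPM (1 count) in BTBR. Among nuclei of this cluster without endothelial markers, 14 of 201 C57BL/6 nuclei and 40 of 325 *Nav1* KO nuclei had a *Slco1a4* UMI, against 0 of 306 BTBR nuclei, where *Flt1* had a UMI in 33. The BTBR over C57BL/6 ratio in the whole meningeal class was 0.0273, with an interval of 0.000663 to 0.167 from 1 and 24 counts. Of the 8842 genes tested in that comparison, 5 (0.0565%) had a ratio at or below that of *Slco1a4*, itself among them. The endothelial *Slco1a4* level was 1133 CPM in BTBR and 1158 CPM in C57BL/6, a ratio of 0.979 (0.716 to 1.35), which ran from 0.579 to 1.63 over 11 alternatives. The *Nav1* KO over C57BL/6 ratio in meningeal nuclei was 0.984 (0.619 to 1.62). The leading genes of the cluster were alike in the 3 libraries, with *Slc6a13* itself at 991, 1181 and 1209 CPM and *Ranbp3l* at 2035, 1705 and 1989 CPM in C57BL/6, *Nav1* KO and BTBR. Clusters led by meningeal genes but left unnamed had *Slco1a4* at 44.7, 36.7 and 18.5 CPM where *Slc13a4* led (7, 30 and 7 counts), and at 35.4, 60.9 and 0 CPM where *Slc47a1* led. A further unnamed cluster led by *Slc6a13*, of 371 nuclei, had 15.3, 26.6 and 8.4 CPM, so *Slco1a4* was found in some BTBR nuclei with meningeal markers.

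**Figure D3:**
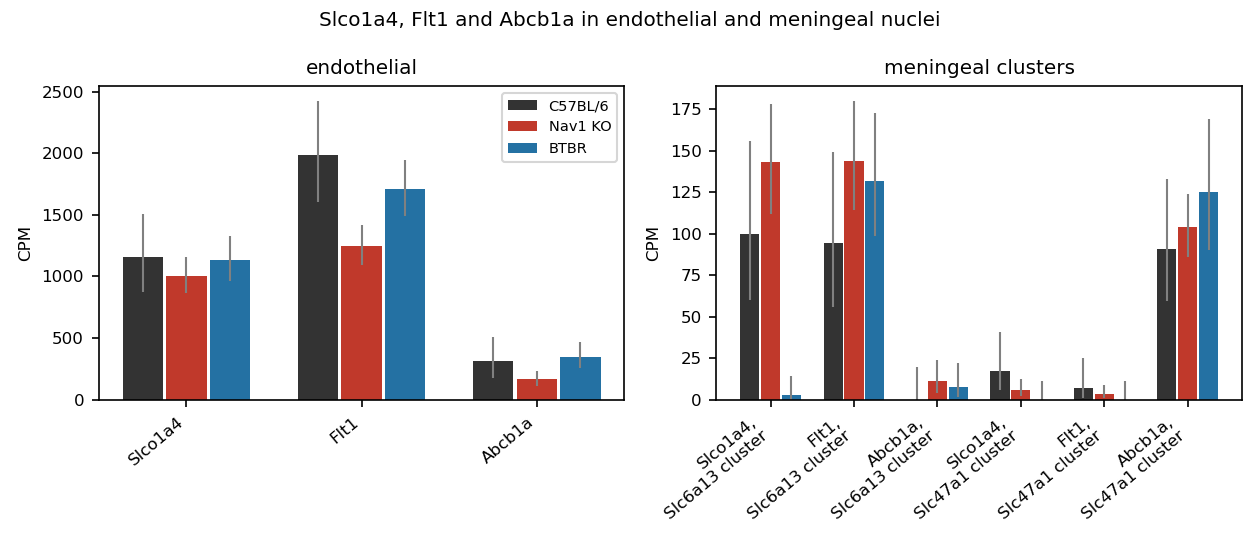
CPM of *Slco1a4*, *Flt1* and *Abcb1a* in endothelial nuclei (left) and in the *Slc6a13* and *Slc47a1* meningeal clusters (right), as bars by library with 95% Poisson intervals. *Slco1a4* is at 99.7 and 143 CPM in the *Slc6a13* cluster of C57BL/6 and *Nav1* KO and at 2.54 CPM in BTBR, while the 3 endothelial bars lie between 1002 and 1158 CPM.

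*Cldn5* was also found in ensheathing glia. In *Nav1* KO these 450 nuclei had 116 *Cldn5* counts (88.4 CPM, 73.1 to 106), and in BTBR 123 nuclei had 10 counts (30.4 CPM, 14.6 to 55.9). In *Nav1* KO ensheathing nuclei without an endothelial marker, 57 of 412 had a *Cldn5* UMI, at 87.2 CPM, while *Flt1* and *Slco1a4* had 1 count each in those nuclei. C57BL/6 had 27 ensheathing nuclei and 3 *Cldn5* counts, too few to set a level. Astrocytes had 3.78 CPM and oligodendrocytes 0 counts.

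*Nav1* KO was compared with C57BL/6 to see how the endothelial levels differ where *Nav1* is deleted. With a minimum of 20 summed counts, 7 of the 8 genes could be compared in the endothelial nuclei, and 3 were past 1.5-fold, all lower in *Nav1* KO. Over all 2157 genes that met this minimum, 44.2% were past 1.5-fold in either direction and the median ratio was 0.969, against a median of 0.671 for the members. The share past 1.5-fold and lower was 23.6% of these genes. *Flt1* had a ratio of 0.628 (0.493 to 0.804), *Tek* 0.590 (0.270 to 1.39) and *Abcb1a* 0.530 (0.278 to 1.06). *Cldn5*, at 0.671 (0.524 to 0.867), was just inside the fold limit, and its interval, like that of *Flt1*, lay below 1. *Slco1a4* was at 0.865 (0.639 to 1.19), *Kdr* at 0.940 (0.440 to 2.23) and *Pecam1* at 1.06 (0.479 to 2.65). *Vegfa* was below the minimum, with 19 counts in *Nav1* KO and 0 in C57BL/6. Markers of other cells also differed in the endothelial nuclei, and their part in the ratios was not tested. The mural markers summed to 2614 CPM in *Nav1* KO and 4301 CPM in C57BL/6, and the astrocyte markers to 1405 and 2150 CPM. The C57BL/6 mural sum came from 208 counts, which include the *Acta2* counts of a single nucleus. The median number of endothelial markers per endothelial nucleus was 4 in *Nav1* KO and 6 in C57BL/6. Their summed levels were 4581 and 4839 CPM. Without the nuclei with the highest doublet scores 0 members were past the fold limit, and with nuclei classed by marker counts in place of clusters *Kdr* (2.44) and *Pecam1* (2.19) were past it and higher, with *Flt1* at 0.991 and *Cldn5* at 0.995.

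In BTBR all 8 genes met the minimum, and 3 were past 1.5-fold, with 44.6% of 1604 genes as background (25.0% higher and 19.6% lower). *Cldn5* was lower at a ratio of 0.583 (0.445 to 0.769), and *Tek* lower at 0.613 (0.265 to 1.5). *Vegfa* was counted as higher, at 20 counts against 0. With 3 counts in place of the 0 it was 2.40-fold higher, a value that leaves out the counting error of the 20. The other 5 were within the limit, from 0.860 (0.675 to 1.10) for *Flt1* to 1.28 (0.598 to 3.05) for *Kdr*. The median over the 7 members with a ratio was 0.979, against 1.03 over all genes. When endothelial nuclei with 2 or more mural markers were left out, 6 members met the minimum and 0 were past the limit. *Cldn5* was then at 0.886, and *Tek* and *Vegfa* fell below the minimum. Without the nuclei with the highest doublet scores *Cldn5* was at 0.846. In the endothelial nuclei the summed astrocyte markers were 2150, 1405 and 887 CPM in C57BL/6, *Nav1* KO and BTBR and the mural markers 4301, 2614 and 3138 CPM, and their part in the ratios was not tested. The C57BL/6 mural sum again includes the *Acta2* counts of a single nucleus.

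**Figure D4:**
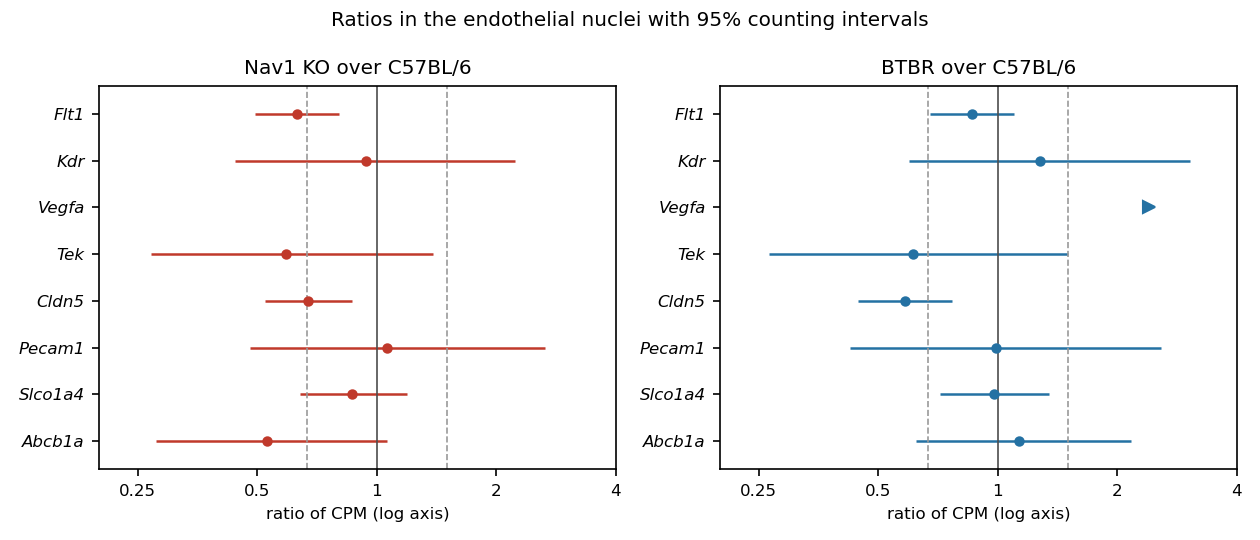
Ratio of CPM in endothelial nuclei (log axis) for *Nav1* KO over C57BL/6 (left) and BTBR over C57BL/6 (right), with 95% counting intervals, a solid line at 1 and dashed lines at the 1.5-fold limits. *Flt1* (0.628) and *Cldn5* (0.671) lie below 1 with their intervals in *Nav1* KO, as does *Cldn5* (0.583) in BTBR. The triangle shows *Vegfa* in BTBR with 3 counts in place of the 0 in C57BL/6, without the counting error of its 20 counts. *Vegfa* was below the count minimum in *Nav1* KO and has no point there.

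The astrocyte source of *Vegfa* was compared in the same way. *Nav1* KO and C57BL/6 astrocytes were alike within counting error, with a ratio of 1.02 (0.881 to 1.17), where 26.4% of 9103 genes were past 1.5-fold. BTBR over C57BL/6 gave 1.52 (1.32 to 1.75), at the fold limit, where 28.1% of 8220 genes were past it. The astrocytes fell into 2 clusters with unequal *Vegfa*. Nuclei led by *Atp13a4* had 724, 764 and 972 CPM in C57BL/6, *Nav1* KO and BTBR, and nuclei led by *Thbs4* and *Gfap* had 237, 282 and 391 CPM. The mix differed, with 224, 358 and 349 nuclei in the first cluster and 114, 250 and 76 in the second. Within the clusters the BTBR ratio was 1.34 (1.16 to 1.56) and 1.65 (0.982 to 2.81), and with astrocytes taken by marker counts in place of clusters it was 1.12, so the call past 1.5-fold rests on how astrocytes are chosen.

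In meningeal nuclei *Vegfa* was lower in *Nav1* KO, at 89.5 CPM against 170 CPM in C57BL/6 and 175 CPM in BTBR. This contrast was not a planned comparison, and its ratio was not recomputed under the alternatives. The *Nav1* KO over C57BL/6 ratio was 0.528 (0.400 to 0.70), and 1 of the 5 members that met the minimum was past 1.5-fold there, against 26.4% of 10925 genes. Within the *Slc6a13* cluster the ratio was 0.523 (0.368 to 0.748) and within the *Slc47a1* cluster 0.684 (0.427 to 1.13). In the BTBR comparison of meningeal nuclei 2 of 4 members were past the limit, *Slco1a4* lower and *Flt1* higher at 1.70 (0.998 to 3.01), against 30.0% of 8842 genes. Within the *Slc6a13* cluster, which held 217 of 364 C57BL/6 and 356 of 514 BTBR meningeal nuclei, the *Flt1* ratio was 1.40 (0.805 to 2.54), inside the limit.

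**Figure D5:**
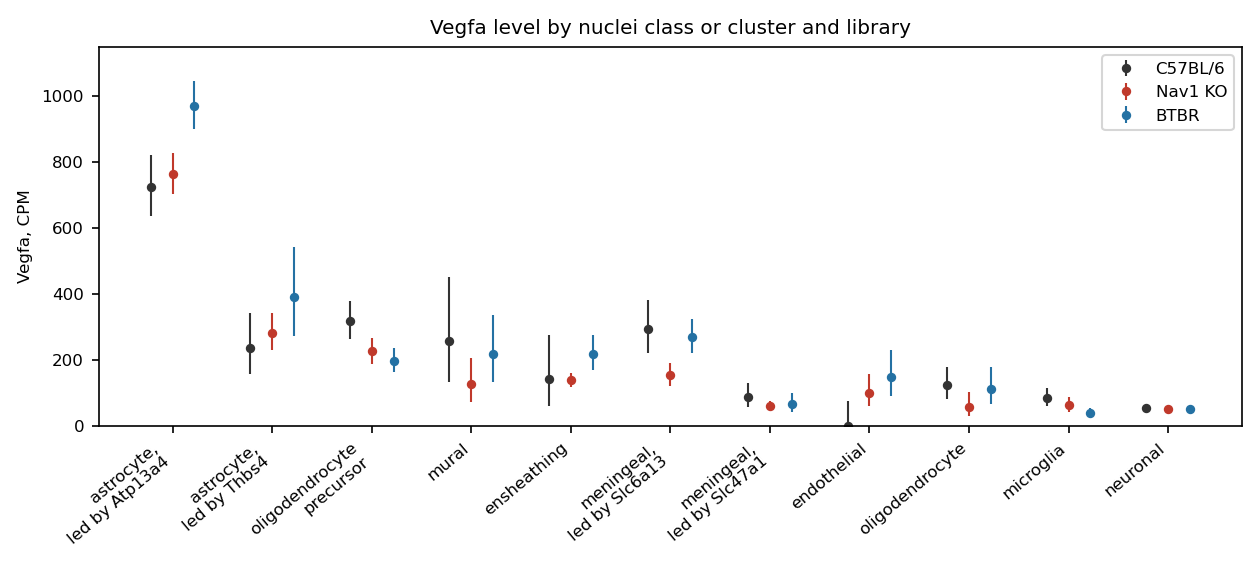
*Vegfa* level in CPM by class or cluster of nuclei and library, as points with 95% Poisson intervals. The *Atp13a4* astrocytes are highest (724, 764 and 972 CPM), the *Thbs4* astrocytes lie at 237, 282 and 391 CPM, and endothelial nuclei have 0 counts in C57BL/6.

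The other genes of these pathways were read from named lists. Of 19 VEGF and angiopoietin genes, 13 had at least 50 counts over the 5 classes, and 4 were highest in endothelial nuclei in all 3 libraries. These were *Ptprb*, a phosphatase that restrains Tie2 (509 CPM over the libraries in endothelial nuclei, at most 19.0 in the other 4 classes), *Epas1*, the hypoxia factor HIF-2α (334 and at most 64.5 CPM), *Nrp1*, a VEGF co-receptor (140 and at most 130 CPM), and *Nos3*, endothelial nitric oxide synthase (70.1 and at most 4.48 CPM). The angiopoietins *Angpt1* and *Angpt2* and the ligands *Vegfb*, *Vegfc*, *Vegfd* and *Pgf* did not have this pattern. *Pgf*, which binds VEGFR1, was highest in meningeal nuclei in all 3 libraries, at 29.6 CPM over them.

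Of 17 junction and barrier genes, 13 met 50 counts and 8 were highest in endothelial nuclei in all 3 libraries. The Wnt-linked genes *Lef1* (172 CPM), *Apcdd1* (272 CPM) and *Foxq1* (199 CPM) and the endothelial factor *Sox17* (181 CPM) were among these. The scaffold protein *Tjp1*, found in many cell types, was not. *Cdh5*, the endothelial cadherin, was highest in meningeal nuclei in C57BL/6, where the endothelial nuclei had 2 counts, and highest in endothelial nuclei in the other libraries. Of 18 barrier transporters, 14 met the minimum and 10 were highest in endothelial nuclei in all libraries, such as the glucose transporter *Slc2a1* (493 CPM), the thyroid hormone transporter *Slco1c1* (595 CPM against 283 CPM in astrocytes) and the efflux pump *Abcg2* (232 CPM against 145 CPM in meningeal nuclei). Of 10 artery and vein genes, 5 met 50 counts and 1 had the pattern, *Mfsd2a*, a lipid transporter of capillaries.

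The pathway lists were compared between libraries in endothelial nuclei, where the shares of all genes past 1.5-fold were 44.2% and 44.6%. The list ratios were not recomputed under the alternatives, some of which moved the member ratios of the same nuclei. In *Nav1* KO, 4 of 8 junction and barrier genes that met the minimum were past 1.5-fold, all lower (23.6% of all genes were), with a list median of 0.663, among them *Tjp1* at 0.310 (0.162 to 0.603) and *Apcdd1* at 0.444 (0.268 to 0.749). Of 13 transporters 5 were lower and 1 higher, with a median of 0.930, and of 4 VEGF and angiopoietin genes 2 were lower, *Ptprb* at 0.459 (0.304 to 0.702) and *Epas1* at 0.451 (0.280 to 0.738), and 1 was higher. In BTBR the medians were 0.937 for 9 junction genes, 1.01 for 13 transporters and 0.874 for 4 VEGF and angiopoietin genes. Past 1.5-fold there were 1 higher and 2 lower junction genes, 2 higher and 3 lower transporters, and 1 higher and 1 lower VEGF and angiopoietin gene. Of the artery and vein genes, 3 met the minimum in *Nav1* KO (median 0.586, 2 lower). In BTBR 2 of them met it (median 1.35, 1 higher). *Tjp1*, at 0.398 (0.204 to 0.784), *Apcdd1*, at 0.416 (0.238 to 0.732), and *Epas1*, at 0.547 (0.335 to 0.907), were lower in BTBR as well, and both comparisons share the 25 C57BL/6 endothelial nuclei.

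Across 27 profiles, 9 classes in 3 libraries each, the genes most like each member were named by Pearson's correlation of log2(CPM + 10) among 17238 genes. The profiles share libraries, so these are descriptions. *Tek* was most like *Cyyr1* (r = 0.991), *Mecom* (0.990) and *Adgrl4* (0.989), which are among the markers that named the endothelial cluster. *Flt1* was most like *Hspb1* (0.969), *Kdr* like *Ly6a* (0.972), *Pecam1* like *Sox17* (0.958), *Slco1a4* like *Hspb1* (0.961) and *Cldn5* like *Grrp1* (0.937). *Abcb1a* was most like *Iigp1* (0.949). *Vegfa* was most like *Abhd3* (0.855), *Sall2* (0.851) and *Cxcl14* (0.847), lower values than for the other 7 members.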

How the data were processed

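The authors deposited, for each of 3 libraries, a table of counts (UMIs per gene and nucleus) made from 10x 3' libraries. The submitters' processing notes name Cell Ranger 6.0.0 and mm10. Whether intronic reads were counted is not given in the sources used here. A gene had to be found in 3 or more nuclei of its library, and a nucleus needed 200 or more genes and a mitochondrial share below 10%. Each nucleus was normalised to 10000 counts before ln(1 + x). A total of 2000 variable genes, 10 principal components and Louvain clustering at resolution 0.3 gave 11 clusters. The nuclei of 7 of them, in which non-neuronal markers led, went into another clustering (15 components, resolution 1), which gave 19 clusters, 10 of them named. Counts were summed per class and library, with exact Poisson intervals for CPM, exact Clopper-Pearson intervals for shares and the exact binomial split for ratios, at 95%. Ratios were called past 1.5-fold with at least 20 counts over both libraries. A count of 0 was given the limit of 3 counts. Doublets were not removed in the reported values. The scripts were tested on simulated data. Python 3.11.15, numpy 2.4.6, scipy 1.17.1, pandas 2.3.3 and igraph 0.11.9 were used.

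The genes described, the marker and pathway lists and the tests were chosen with earlier results of these data known. The genes named are the 8 members, genes of the pathway lists, the nearest of the 3 genes with the most similar profile to each member (all 3 for *Tek* and *Vegfa*), markers where a class was checked and the leading genes of clusters. Relatives of *Abcb1a* and *Slco1a4* were named after their values were seen. Alternatives were another scaling, other filters, other clusterings, classes by marker counts, doublets left out, and means over nuclei.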

Additional observations from a re-analysis of the deposited data

How the results depend on the processing

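The count of 7 members highest in the endothelial class was 7 under every alternative that gave an endothelial class (10 alternatives, 2 of them chosen after seeing the data), and clustering again at resolution 0.5 gave no separate endothelial class. The number of members past 1.5-fold in endothelial nuclei was 3 in *Nav1* KO and became 5 under 5% mitochondrial counts, 0 without the 10% of nuclei with the highest doublet scores, 0 at a fold limit of 2 and 1 with a minimum of 50 counts. In BTBR it was 3 and became 1 at a fold limit of 2, 1 with a minimum of 50 counts and 0 of 6 that met the minimum without endothelial nuclei with 2 or more mural markers. The astrocyte *Vegfa* ratio of BTBR was 1.76 as a mean over nuclei and 1.12 with classes by marker counts, and that of *Nav1* KO was 1.19 in the smaller astrocyte cluster. The endothelial *Tek* ratio turned to 1.01 in BTBR as a mean over nuclei and to 1.34 in *Nav1* KO with classes by marker counts. The endothelial *Flt1* ratio of *Nav1* KO ranged from 0.443 to 0.991 the *Cldn5* ratio of BTBR from 0.364 to 0.886 and the *Slco1a4* ratio of BTBR from 0.579 to 1.63. The cause of these shifts was not tested. The meningeal *Slco1a4* ratio of BTBR, added after seeing the data, ranged from 0 to 0.0487 over 10 alternatives. Means over nuclei moved 21 of 120 levels outside their intervals. No paired analysis was possible because each group has 1 library. The 25 endothelial nuclei of C57BL/6 limit every endothelial ratio.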

Other observations

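A cluster of 100 nuclei was left unnamed and was led by *Fn1*, *Dpp4*, *Dapl1*, *Prg4*, *Klf4* and *Cdh1*. *Abcb1a* was at 183, 173 and 140 CPM there in C57BL/6, *Nav1* KO and BTBR, from 5, 20 and 6 counts. Endothelial nuclei had *Abcb1a* at 310, 164 and 350 CPM. *Kdr* was at 36.6, 43.3 and 186 CPM in the 100 nuclei of the unnamed cluster, from 1, 5 and 8 counts. In the 90 of these nuclei without an endothelial marker, *Abcb1a* was at 179 CPM and *Kdr* at 83.0 CPM, while *Cldn5*, *Pecam1*, *Slco1a4* and *Tek* had 0 counts.

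*Slc22a8*, an organic anion transporter of the barrier list, was highest in meningeal nuclei in C57BL/6 and BTBR and in endothelial nuclei in *Nav1* KO, at 161 CPM in meningeal and 175 CPM in endothelial nuclei over the libraries. *Nr2f2*, a vein factor of the zonation list, was at 296 CPM in ensheathing and 288 CPM in meningeal nuclei and at 78.1 CPM in endothelial nuclei.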
